A study of Mus musculus with 8 samples.

Results

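The genes described here encode the protein part of the large (60S) subunit of the cytosolic ribosome. They were taken from the deposited mouse gene table as protein-coding rows whose symbol is a large subunit ribosomal protein, which gave 45 of 22046 protein-coding genes and of 54532 genes in all. All 45 were found in the table. The cells are those of mouse brain, studied by ribosome profiling beside sequencing of mRNA. In ribosome profiling nuclease digests RNA outside ribosomes, and the pieces left inside them (footprints) are sequenced. The series asks how loss of Nsun5, an enzyme that methylates a cytosine of large subunit ribosomal RNA, changes the amounts of transcripts and their translation there.

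Brains were taken at 3 months of age from male mice of 2 genotypes, wild type (WT) and knockout for Nsun5 (Nsun5-KO, here KO). The labels name no treatment of either group beyond the anaesthetic used at collection. There were 4 WT and 4 KO footprint libraries, numbered 1 to 4 within each group, and an mRNA library of the same name for each. The protocol names 5 mice per genotype, littermates, but ties no library to an animal and does not describe the knockout allele. The p-values therefore measure the spread between these libraries, which may be technical.

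Each large subunit protein is made in the cytoplasm, imported into the nucleolus and fitted onto ribosomal RNA before the finished subunit is exported. Mammalian ribosomal protein mRNAs begin with a pyrimidine tract, the terminal oligopyrimidine motif, through which growth signalling by mTORC1 and the RNA-binding protein Larp1 sets how much of the mRNA sits on ribosomes. In brain, neurons make these proteins both in the cell body and in processes, and the genes are among the most highly transcribed in most cell types.

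To show the motif in the genes that the comparisons below turn on, the bases around each gene's annotated start were searched on the gene's strand. A start sequence was found for 34 of the 45 genes, with 40 starts, in RefSeq (GRCm38.p6). The longest unbroken run of C and T within 50 bases on either side is given in capitals in 30 bases of sequence, 5′ to 3′. The first 5 genes had lower mRNA in all KO than in all WT libraries, Rpl7a had the highest ratio of footprints to mRNA, Rpl35 the fewest footprints for its mRNA, and Rplp0 is one of the genes with a short run.
Rpl10 (chrX:74270836-74270865, plus strand): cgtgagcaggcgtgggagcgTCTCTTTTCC
Rpl5 (chr5:107900498-107900527, plus strand): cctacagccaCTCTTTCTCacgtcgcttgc
Rpl41 (chr10:128549119-128549148, minus strand): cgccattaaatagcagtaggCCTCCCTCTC
Rpl4 (chr9:64173406-64173435, plus strand): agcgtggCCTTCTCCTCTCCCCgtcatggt
Rpl37 (chr15:5116632-5116661, plus strand): gcgggggtgCTTTCTCTTCCggtctctttg
Rpl7a (chr2:26910789-26910818, plus strand): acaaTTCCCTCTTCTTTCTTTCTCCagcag
Rpl35 (chr2:39005115-39005144, minus strand): gccccgCCCTTTCCTCTTTCTCTCgaacca
Rplp0 (chr5:115559467-115559496, plus strand): ggaccgcctggTTCTCCTataaaaggcaca

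The longest run had a median of 11 bases over the 40 starts and 7 bases over all 32851 starts in the same table. A run of at least 10 bases lay near 31 of the 40 starts (77.5%), against 18.1% of all starts. Runs of A and G, which are pyrimidine runs on the opposite strand, did not stand out in this way, with at least 10 bases at 17.5% of these starts and 19.0% of all starts. Starts of the same gene can share a run, as those of Rpl35a do. Counted by gene, 29 of the 34 had a run of C and T of at least 10 bases near any start, against 20.6% of all genes there. Rpl7a, a protein of the subunit's solvent side, had the longest run at 21 bases. Rpl19 and Rpl22, proteins near the exit of the peptide tunnel, each had 1 of their starts at 5 bases, the shortest. For Rpl10 and Rpl41 the run began 40 bases after the annotated start and reached the end of the bases searched, so it may continue beyond them. The match describes letters near annotated starts, and initiation sites in these brains were not measured.

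**Figure D1:**
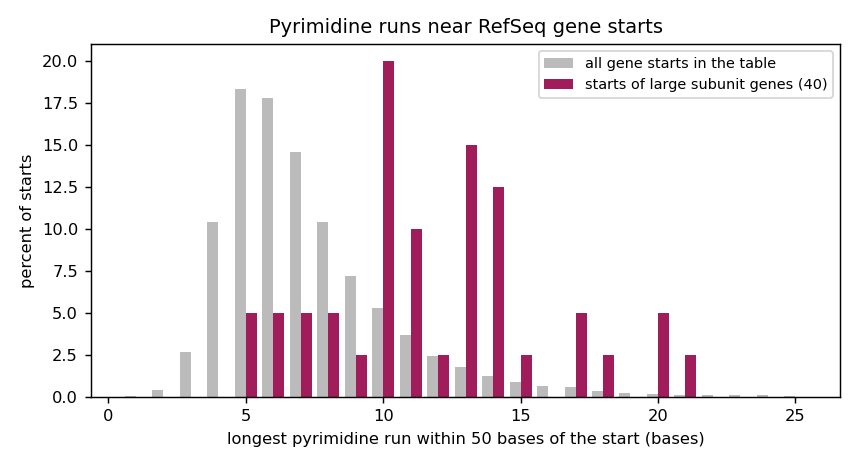
Longest run of C and T (x axis, bases) within 50 bases of annotated starts, as percent of starts (y axis), for the 40 starts of large subunit genes (purple) and all 32851 starts in the RefSeq table (grey). The median is 11 bases for the large subunit genes and 7 bases for all starts.

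Before the comparisons, Nsun5 itself was examined. The WT libraries, in order of number, had 91, 82, 103 and 109 mRNA counts on it, and the KO libraries had 102, 124, 83 and 110. The groups overlapped, and the fitted log2 change was 0.12 ± 0.15 (SE, edgeR adjusted p = 0.820). Footprint counts on Nsun5 were 2, 11, 0 and 6 in WT and 3, 0, 1 and 2 in KO, below the filter of the footprint test. The counts therefore do not separate the labels, a small deletion would not show in them, and KO below means the libraries labelled KO. Footprint libraries held 586392 to 3493841 counts assigned to genes, of which 29.9% to 65.9% lay on protein-coding genes and 23.0% to 60.3% on microRNAs, and mRNA libraries held 15642086 to 17829523. In a principal component analysis KO footprint libraries 1 and 3 lay at 36.5 and −52.0 on the first component, with the others between −10.21 and 9.396. In mRNA, WT libraries 1 and 2 lay at −28.4 and −27.0, with the others between 5.80 and 15.9.

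The first question was how much of the brain's translation is spent on these 45 genes. Together they held 1016081 mRNA counts and 16141 footprint counts over all libraries. In WT libraries 1 to 4 they took 0.751%, 0.810%, 0.823% and 0.856% of protein-coding mRNA counts. In KO libraries 1 to 4 they took 0.744%, 0.793%, 0.664% and 0.781%. KO library 3 was lowest, and the groups overlapped. Of protein-coding footprints they took 0.260%, 0.221%, 0.230% and 0.265% in WT and 0.252%, 0.272%, 0.244% and 0.250% in KO, where the values interleave. The mean KO share over the mean WT share was 1.04 for footprints and 0.920 for mRNA. With all gene-assigned counts as the denominator the footprint value was 0.934. In every library the share of mRNA was above the share of footprints, by 2.72 to 3.66 times. In bulk tissue fewer cells of a type and less RNA per cell cannot be told apart, here and in the comparisons that follow.

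**Figure D2:**
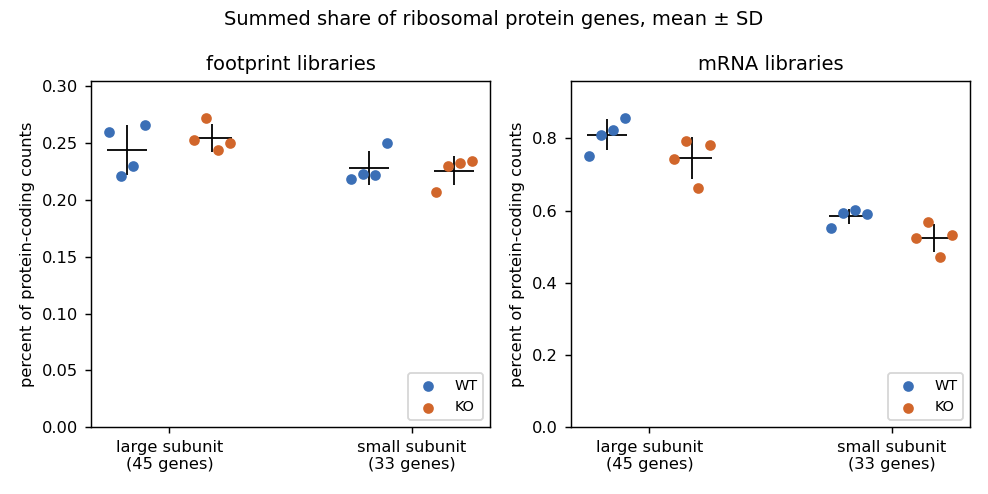
Summed counts of the 45 large and 33 small subunit genes as percent of protein-coding counts (y axis) in each library; points run left to right from library 1 to 4, bars are mean ± SD (n = 4). The large subunit share is 0.221% to 0.272% in footprint libraries and 0.664% to 0.856% in mRNA libraries, and WT and KO overlap in both.

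Large subunit genes carried few footprints for their mRNA. Levels of different genes are compared here as RPKM, read counts scaled by deposited gene length and library size. The authors scaled footprint and mRNA libraries separately, so only the order of genes in the ratio of both is read. Footprints cover only the coding part of a gene, and the deposited length is not coding length, so genes with long untranslated parts have lower footprint RPKM. In WT, 42 large subunit genes were among 9454 protein-coding genes whose RPKM averaged 1 or more for footprints and for mRNA alike. Their median log2 ratio of footprint to mRNA RPKM was −3.06, against −1.12 over the 9454. It lay below the median of all for 39 of the 42, whose median percentile was 3.39. The gap between the medians was −1.58, −2.20, −2.15 and −1.93 in WT libraries 1 to 4. The small subunit genes had a similar position, with a median of −3.05 and 30 of 32 below the median of all genes. Across the 42 genes, log2 footprint and mRNA RPKM had a Pearson correlation of 0.54 and a Spearman correlation of 0.49, a description over genes that share gene length and libraries.

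The genes of the subunit differed widely in mRNA and footprint level. Protein was not measured, so these levels do not bear on the finished subunit, which holds 1 copy of most of its proteins. Order by RPKM also depends on the deposited gene length, such as 383 bases for Rpl36 and 4043 for Rpl18. Mean WT mRNA RPKM had a median of 80.5 over the 45 genes, with quartiles of 50.9 and 128. The highest was Rplp1, an acidic protein of the stalk that recruits elongation factors, at 908 ± 116 (SD, n = 4). Rpl24, a protein of the interface between subunits, was lowest at 0.851 ± 0.364. Mean WT footprint RPKM had a median of 8.94, with quartiles of 3.98 and 11.8.

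Rpl8, a protein of the subunit's core near the peptidyl transferase centre, had the highest footprint level. Its footprint RPKM was 108, 105, 93.7 and 99.3 across WT libraries 1 to 4, and across KO it was 109, 115, 86.5 and 91.8. Rpl38, a protein at the subunit's surface known for its role in Hox mRNA translation, followed with 58.8, 38.3, 45.6 and 77.5 in WT and 43.4, 44.7, 33.9 and 47.1 in KO. Rpl4, whose long loop lines the peptide tunnel, had 52.2, 45.8, 59.5 and 56.3 in WT and 59.8, 53.0, 51.3 and 51.8 in KO. The ranges of Rpl38 and Rpl4 in WT overlap, so their order is not settled, while Rpl8 was above both in each library.

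At the low end Rpl35, a tunnel exit protein that contacts the signal recognition particle, was found with 0, 1, 0 and 2 footprint counts over the WT libraries and with 1, 4, 0 and 0 over the KO libraries. Its mRNA was well measured, with 1402, 1429, 1649 and 1713 counts over WT and 1342, 1552, 1231 and 1519 over KO. Rpl23a, another protein of the tunnel exit, had 6 footprint counts in WT library 1, 1 count in KO library 1 and 0 in the others, beside 968 to 1816 mRNA counts. Rpl24 was low in both kinds, with 0 to 9 footprint counts and 8 to 22 mRNA counts per library. Rpl36, a small protein of the solvent side, had 0, 6, 17 and 2 footprint counts over WT and 0, 4, 0 and 0 over KO. At this depth, levels of these 4 genes in footprints cannot be compared between groups.

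Rpl7a had a footprint to mRNA ratio above nearly all genes, at the 99.7 percentile. Its footprint RPKM in WT was 32.4, 39.8, 36.7 and 46.3, beside mRNA RPKM of 15.03, 13.4, 18.9 and 14.7. The log2 ratio was 1.32 ± 0.34 (SD, n = 4), and it was positive in all 4 WT libraries. Next among the large subunit genes came Rpl8 at −0.80 and Rplp2, an acidic stalk protein, at −0.98. Rpl36 at −5.58, Rpl13, another protein of the solvent side, at −5.00 and Rpl19 at −4.89 had the lowest ratios of the 42.

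**Figure D3:**
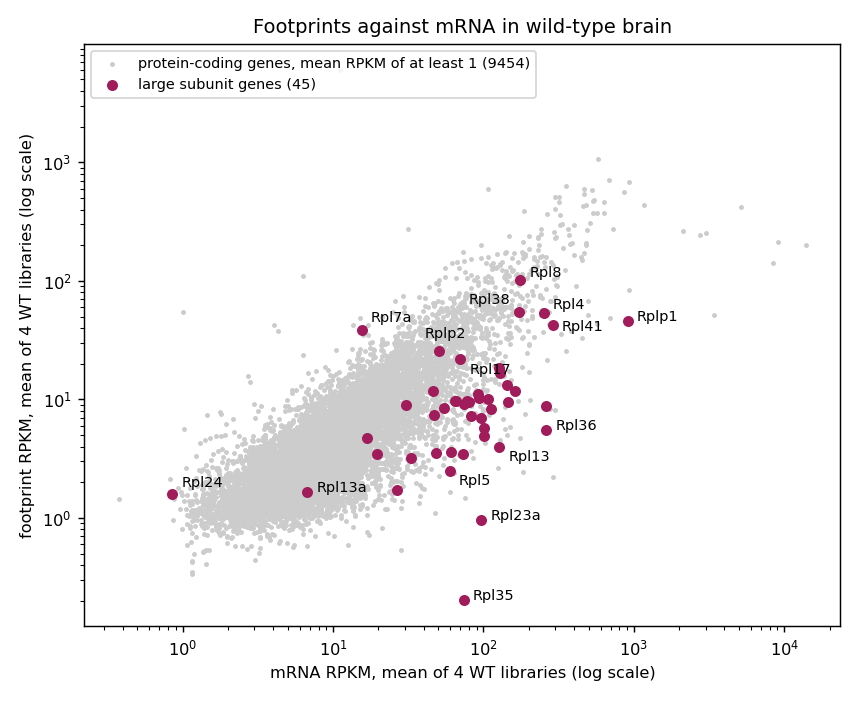
Mean footprint RPKM (y axis, log scale) against mean mRNA RPKM (x axis, log scale) over 4 WT libraries, for 9454 protein-coding genes (grey) and the 45 large subunit genes (purple). Most large subunit genes lie at the lower edge of the cloud, Rpl7a lies at its upper edge, and Rpl35 and Rpl23a lie below it.

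Reads of a ribosomal protein gene can be counted at its processed pseudogenes, which are near copies inserted elsewhere. The table held 237 rows named as copies of 37 of the genes and not classed as protein-coding. They took 59254 mRNA counts, 5.51% of the counts on genes and copies together, but 98 footprint counts (0.603%). The split was uneven. For Rpl17, a tunnel exit protein, 6409 mRNA counts lay on the gene and 23705 on 12 copies (78.7%), while 332 footprint counts lay on the gene and 1 on the copies. Copies held 45.04% of the mRNA counts of Rpl21, 30.5% of Rpl7a, 18.7% of Rpl38, 16.9% of Rpl14 and 16.7% of Rpl23a. Next came Rpl30 at 11.4%, Rpl37 at 9.80% and Rpl3 at 9.48%. The mRNA levels and ratios of genes with copies are therefore uncertain, most of all for the 6 genes before these. Since the handling of multiply mapped reads is not known, footprint levels of genes with copies carry this limit too. The part of copies in the low ratios of footprints to mRNA and in the order of genes was not tested.

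Introns of these genes also house small nucleolar RNAs, which guide modification of ribosomal RNA. The table held 38 such rows inside 19 of the genes, with 7369 footprint counts in all. Those inside Rpl3, which helps form the peptidyl transferase centre, held 4521 footprint counts, against 437 on Rpl3 itself. Those inside Rpl5 held 1200 against 136, and those inside Rpl17 held 1060 against 332. Whether any fragments of these RNAs were counted to the host genes was not tested.

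The mRNA comparison asked whether the transcripts of the subunit's proteins differ between genotypes. No large subunit mRNA passed the test at an adjusted p under 0.05 by edgeR (0 of 44 tested), as no gene at all did (0% of 13058). Rpl24 was below the filter. The log2 fold change, KO over WT, was below 0 for 36 of 44 genes, against 51.4% of all genes tested. Their median was −0.10, against −0.01 for all genes. At an unadjusted p under 0.05, 10 of 44 were lower in KO, where 5.22% of all genes were, and 1 was higher (5.32% of all genes). All KO libraries lay below all WT libraries for 6 genes (Rpl4, Rpl5, Rpl10, Rpl17, Rpl37 and Rpl41), where 2.74% of all genes did so. None had all KO above all WT libraries (2.85% of all genes). By limma 0 genes passed as well. DESeq2 called 75 genes, Rpl10 being the only one of the 44.

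The size of this shift depended on single libraries. KO library 3 had the lowest level of the 8 for 29 of 44 genes, and WT library 1 for 12. Without KO library 3 the median was −0.05, with 29 genes below 0 and 5 lower at an unadjusted edgeR p under 0.05. Of all 13058 genes, 1050 passed that threshold in either direction in this setting, and 1377 did with all libraries. Without WT library 4 the median was −0.06, and without WT library 2 the unadjusted count was 5 (921 of all genes in either direction). Without WT libraries 1 and 2 together the median was −0.16, with 41 genes below 0 and 18 lower (1007 of all genes in either direction). Without KO libraries 1 and 3, an alternative added after the data were seen, the median was −0.04, with 2 lower (658 of all genes in either direction). Coding genes no longer than the median large subunit gene also leaned below 0, 765 of 1252 with a median of −0.04, and after subtraction of the trend with gene length the large subunit median was −0.08 with 33 below 0.

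Rpl10, which closes the late steps of subunit maturation and contacts the peptidyl transferase centre, had the lowest p of the 44. In mm10 it lies at chrX:74270812-74273135 on the plus strand, and the run shown above begins 40 bases after its annotated start. Its mRNA level was 251.7, 257.1, 208.7 and 222.3 CPM (counts scaled to a common library size) across WT libraries 1 to 4, and across KO it was 185.7, 187.9, 181.4 and 181.6 CPM. Every KO library was below every WT library. KO over WT, the log2 change was −0.35 with an SE of 0.08 (n = 4 per group, edgeR adjusted p = 0.337), between −0.40 and −0.31 when any library was left out, and DESeq2 gave an adjusted p of 0.0088. Footprints on Rpl10 were 17.6, 12.4, 16.5 and 25.6 CPM in WT and 14.7, 13.2, 36.5 and 7.85 CPM in KO, where KO holds both the highest and the lowest value.

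Rpl5 binds 5S ribosomal RNA together with Rpl11, and the free pair can inhibit Mdm2 and so stabilise p53. Its mRNA was 228.9, 241.9, 247.1 and 236.9 CPM in WT and 209.1, 210.9, 195.8 and 214.2 CPM in KO, again without overlap (log2 change −0.20 ± 0.06, edgeR adjusted p = 0.337). Rpl11, its partner, gave 132.3, 147.1, 199.4 and 193.2 CPM in WT and 170.7, 183.2, 150.4 and 180.0 CPM in KO. The groups overlapped for Rpl11, with WT libraries 1 and 2 lowest (log2 change 0.03 ± 0.13, edgeR adjusted p = 0.957). Footprints of Rpl5 were sparse, with 13.03, 8.37, 6.22 and 13.6 CPM in WT and 2.44, 8.97, 0 and 13.7 CPM in KO.

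Rpl41, a very short peptide at the subunit bridge, had mRNA levels of 324.4, 374.9, 336.9 and 338.6 CPM in WT and 289.2, 309.5, 222.3 and 303.8 CPM in KO. All KO values were lower, KO library 3 by the most (log2 change −0.29 ± 0.10, edgeR adjusted p = 0.406). Rpl4 had 512.4, 537.1, 518.1 and 496.8 CPM in WT and 471.7, 477.5, 449.4 and 487.6 CPM in KO (−0.13 ± 0.06, edgeR adjusted p = 0.467). Rpl37, which binds 5.8S ribosomal RNA, had 158.3, 172.1, 156.1 and 155.7 CPM in WT and 145.4, 152.8, 112.9 and 137.6 CPM in KO (−0.23 ± 0.09, edgeR adjusted p = 0.442). The nearest WT and KO libraries were at 496.8 and 487.6 CPM for Rpl4 and at 155.7 and 152.8 CPM for Rpl37. For Rpl41 they were at 324.4 and 309.5 CPM.

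Of the genes lower at an unadjusted p under 0.05, Rpl17 and Rpl21 had the lowest fold changes, at −0.43 ± 0.12 and −0.46 ± 0.16, and both share reads with copies. Rpl17 mRNA was 53.4, 56.7, 43.3 and 68.1 CPM in WT and 39.9, 39.1, 42.8 and 42.7 CPM in KO. The lowest WT and highest KO values of Rpl17 nearly met, at 43.3 and 42.8 CPM. Its copies held 172.2, 173.8, 191.0 and 172.7 CPM in WT and 180.3, 186.3, 162.0 and 191.5 CPM in KO, where the groups overlapped. With the copies added to the gene, an alternative chosen after the data were seen, the Rpl17 log2 fold change was −0.07 (edgeR adjusted p = 0.713). The copy of Rpl14, Rpl14-ps1, was itself lower in KO, with 40.8, 41.6, 35.4 and 40.8 CPM in WT and 28.9, 34.3, 27.1 and 28.6 CPM in KO (log2 change −0.41 ± 0.09, edgeR adjusted p = 0.337), a row noticed after its values were seen.

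In the other direction Rpl7a mRNA was 27.4, 24.4, 34.5 and 26.7 CPM in WT and 32.6, 51.9, 40.2 and 33.5 CPM in KO. WT library 3 lay above 2 KO libraries (log2 change 0.49 ± 0.16, edgeR adjusted p = 0.372). With its 25 copies added it was 0.34. Rpl13a, known for a translation-silencing role in inflammation, followed at 0.14 ± 0.12, with 11.97, 13.02, 15.9 and 17.2 CPM in WT and 15.4, 16.4, 16.8 and 15.5 CPM in KO. Rpl23a was at 0.12 ± 0.17, with 57.1, 78.5, 97.4 and 101.6 CPM in WT and 81.5, 107.7, 80.5 and 93.0 CPM in KO. For both, WT libraries 1 and 2 were low, and the sign turned when those libraries were left out, to −0.048 for Rpl13a and −0.13 for Rpl23a.

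By structural role, mRNA of the interface and catalytic centre proteins was below 0 for 9 of 9 tested genes (median −0.13), with the lowest p for Rpl10, Rpl41 and Rpl4. Among proteins at the tunnel exit 8 of 9 were below 0 (median −0.05), with Rpl23a as the exception. The stalk had 3 of 4 below 0 (median −0.08), and Rplp2 was lowest at −0.19 ± 0.08. Of the 5S-binding pair, Rpl5 was below 0 and Rpl11 above. Of the other 20 tested proteins 15 were below 0 (median −0.10). Since the groups hold few genes and all share the same libraries, no group is set apart from the others here.

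**Figure D4:**
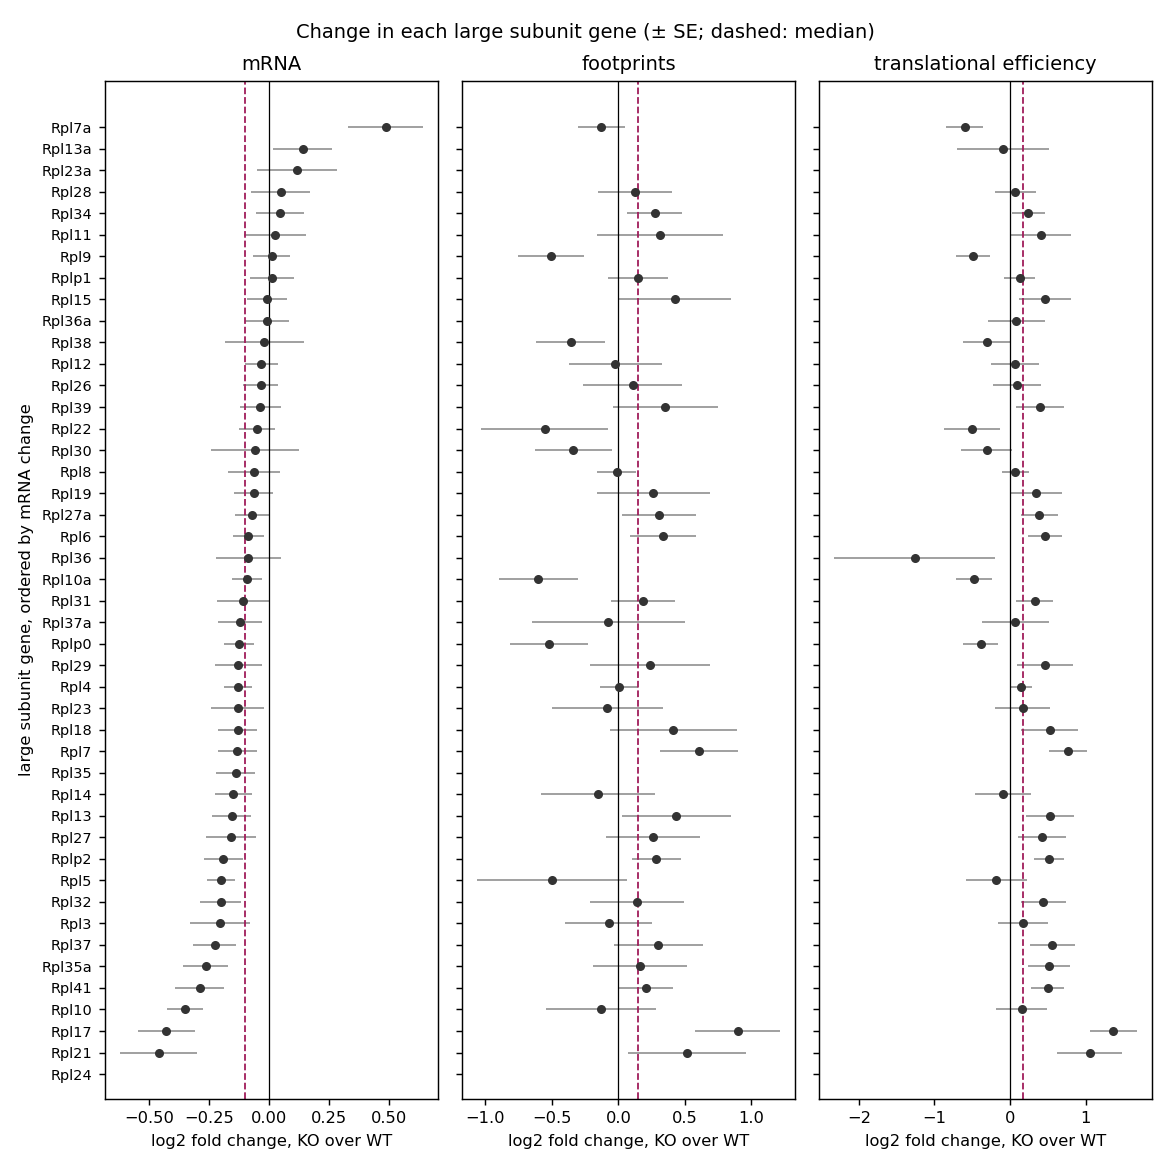
Log2 fold change, KO over WT, ± SE (x axis) of each large subunit gene (y axis, ordered by mRNA change) for mRNA, footprints and translational efficiency; dashed lines mark the medians of −0.10, 0.15 and 0.17. A gene without a point was below the filter in that comparison; most mRNA points lie left of 0, and footprint errors are wider than mRNA errors.

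For footprints the same contrast asked whether ribosome-protected fragments on these genes differ. No large subunit gene passed by edgeR (0 of 39 tested, 0% of 8476 genes), and none by DESeq2 or limma. At an unadjusted p under 0.05, 1 was higher (2.88% of all genes) and 0 were lower (2.64% of all genes). Footprints on 6 genes (Rpl13a, Rpl23a, Rpl24, Rpl35, Rpl36 and Rpl36a) were too few to test. Of the 39, 24 were above 0 (49.6% of all genes), with a median of 0.15 against −0.004 over all genes. The standard error of a gene ranged from 0.145 to 0.576 with a median of 0.33, so the precision of single changes was low at this depth. The median itself was 0.09 without KO library 4, 0.10 without WT library 2 and 0.24 without WT library 4, and 0.04 by limma on RPKM.

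Rpl17 was the gene with an unadjusted p under 0.05. Its footprints were 21.0, 24.5, 16.5 and 8.67 CPM in WT and 21.99, 42.7, 32.7 and 31.4 CPM in KO. KO was higher on average, but KO library 1 lay below WT library 2 (log2 change 0.90 ± 0.32, edgeR adjusted p = 0.863). Rpl7, a protein that contacts the 5S region of the subunit, was the only gene with all KO above all WT libraries (1.57% of all genes), and none had all KO below all WT (2.04% of all genes). Its footprints were 20.4, 12.7, 10.98 and 19.97 CPM in WT and 20.8, 21.1, 24.99 and 30.4 CPM in KO (log2 change 0.61 ± 0.29, edgeR adjusted p = 0.881). KO library 1 exceeded WT library 1 by less than 1 CPM.

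Within the acidic stalk the proteins did not share a direction. Rplp2 had 52.1, 47.1, 58.9 and 66.0 footprint CPM in WT and 68.4, 87.1, 51.9 and 60.8 in KO (log2 change 0.29 ± 0.19). Rplp1 had 18.1, 24.5, 25.98 and 26.8 CPM in WT and 25.6, 26.4, 30.7 and 24.5 CPM in KO (0.15 ± 0.22). Rplp0, the scaffold of the stalk, had 19.8, 23.6, 27.1 and 22.2 CPM in WT and 18.3, 14.3, 7.69 and 22.6 CPM in KO (−0.52 ± 0.29). Edge values of both groups crossed for all 3 genes, and the edgeR adjusted p of each was at least 0.881.

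On the lower side Rpl10a, Rpl9 and Rplp0 had the lowest p-values, none under 0.05 unadjusted. Rpl10a, which sits at the L1 stalk where the used transfer RNA leaves, had 21.0, 23.9, 15.7 and 25.25 footprint CPM in WT and 9.77, 15.8, 11.5 and 17.7 CPM in KO (log2 change −0.60 ± 0.29, edgeR adjusted p = 0.881). Rpl9, at the base of the stalk, had 32.9, 36.3, 43.6 and 30.2 CPM in WT and 32.98, 30.1, 17.3 and 17.7 CPM in KO (−0.51 ± 0.25, edgeR adjusted p = 0.881). KO libraries 3 and 4 were low for Rpl9, and KO libraries 2 and 4 overlapped WT for Rpl10a.

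**Figure D5:**
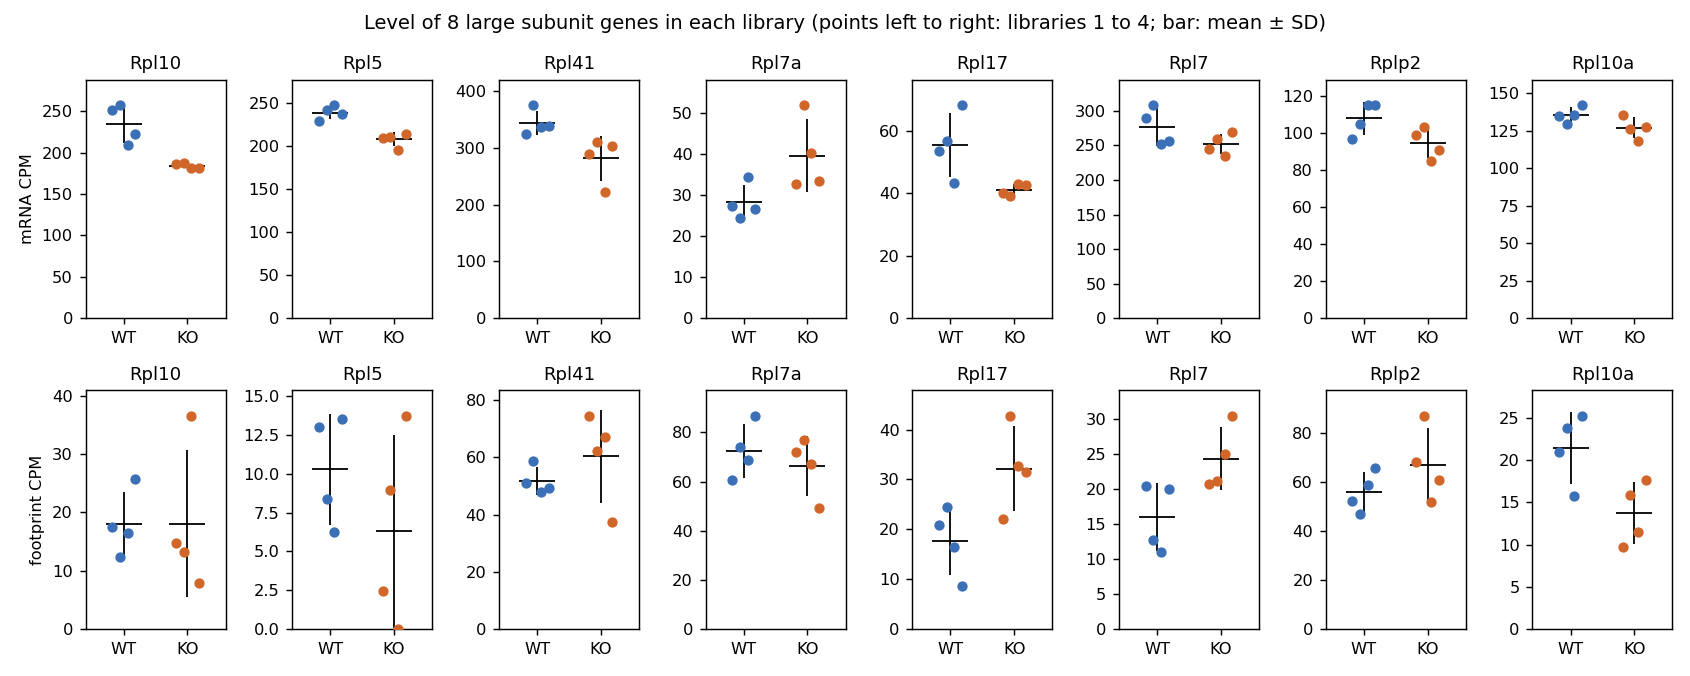
Level in CPM (y axis, from 0) of 8 large subunit genes in each mRNA library (upper row) and footprint library (lower row), WT in blue and KO in orange, with points from left to right for libraries 1 to 4 and bars for mean ± SD (n = 4). In mRNA the groups do not overlap for Rpl10, Rpl5, Rpl41 and Rpl17; in footprints they do not overlap for Rpl7, and overlap for the others.

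Translational efficiency, the change in footprints beyond that in mRNA, was tested as the interaction of genotype and library kind. No large subunit gene passed by edgeR (0 of 42 tested, 0% of 9673 genes), 0 passed by limma, and DESeq2 called 150 genes, of the 42 only Rpl17 (adjusted p = 0.012). At an unadjusted edgeR p under 0.05, 5 were higher (5.21% of all genes) and 2 were lower (5.67% of all genes). The log2 change was above 0 for 31 of 42 genes (49.8% of all genes), with a median of 0.17 against −0.003 over all genes. Without WT library 1 the median was 0.38, and without WT library 4 it was 0.31. This comparison uses the same libraries as the other 2, so it is no separate evidence.

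Rpl17 had the highest value, at 1.37 ± 0.31 (edgeR adjusted p = 0.159), formed by the footprint and mRNA values given above. With copies added to the gene it was 1.02 (edgeR adjusted p = 0.204). Rpl7 had 0.76 ± 0.25 (edgeR adjusted p = 0.272), Rplp2 0.51 ± 0.20 (edgeR adjusted p = 0.353), Rpl21 1.05 ± 0.43 and Rpl41 0.50 ± 0.22. Rpl7 mRNA, 290.1, 308.1, 251.6 and 256.3 CPM in WT and 245.3, 259.0, 235.1 and 269.2 CPM in KO, overlapped between groups.

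Among genes with lower efficiency in KO, Rpl7a had the lowest p, at −0.60 ± 0.24 (edgeR adjusted p = 0.371). Its footprints were 60.6, 74.1, 68.8 and 86.7 CPM in WT and 72.1, 77.1, 67.3 and 49.1 CPM in KO, which overlap, and its mRNA change of 0.49 is described above. Counting its copies gave −0.44. By p, Rpl9 at −0.49 ± 0.23 and Rpl10a at −0.48 ± 0.24 came next.

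Other genes of the pathway were read from lists of related genes. Small subunit mRNAs had 29 of 32 tested below 0 (51.4% of all genes), with a median of −0.13. At an unadjusted edgeR p under 0.05, 7 were lower (5.22% of all genes) and 1 was higher (5.32% of all genes). Rps6, the target of S6 kinase, had 302.3, 303.7, 280.1 and 276.2 CPM in WT and 232.0, 245.2, 209.7 and 254.2 CPM in KO (log2 change −0.30 ± 0.07, edgeR adjusted p = 0.337). Rps27, whose protein binds zinc, was the higher one, at 0.73 ± 0.24. Small subunit footprints had a median of −0.07, where large subunit genes had 0.15. Of the small subunit genes, 15 of 31 were above 0 (49.6% of all genes). The difference between the 2 subunits was not tested.

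Large subunit assembly factors, which act in the nucleolus and are not part of the finished ribosome, had a median mRNA change of −0.01. Of the 37 factors tested, 19 were below 0 (51.4% of all genes). None had an unadjusted p under 0.05 in edgeR (5.22% of all genes lower, 5.32% higher). Their footprints had a median of 0.10 over 31 genes. Genes of growth signalling to the pyrimidine tract had a median mRNA change of 0.01 over 20 genes. In footprints 4 of 14 tested were above 0 (49.6% of all genes), with a median of −0.05. None of the 14 had an unadjusted edgeR p under 0.05. Larp1 footprints were 18.7, 14.0, 22.3 and 28.6 CPM in WT and 41.5, 25.9, 24.99 and 31.4 CPM in KO, with KO library 1 highest (log2 change 0.56). Rptor, a core subunit of mTORC1, had 65.7, 64.8, 70.3 and 75.8 footprint CPM in WT and 52.5, 60.7, 36.5 and 59.9 CPM in KO (−0.37). All KO libraries lay below all WT libraries for Rptor, as they did for 2.04% of all genes. No gene of these lists passed at an adjusted p under 0.05 by edgeR.

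Among paralogs of the large subunit genes only Rpl7l1 and Rpl22l1 were tested. Rpl7l1, the Rpl7 paralog, had 5.10, 5.58, 10.2 and 12.8 footprint CPM in WT and 28.1, 13.2, 7.69 and 15.7 CPM in KO (log2 change 0.93 ± 0.43, edgeR adjusted p = 0.881). KO library 1 was highest and KO library 3 lay within WT. Rpl3l, the muscle form of Rpl3, had at most 7 mRNA counts in a library, and Rpl10l and Rpl39l, forms of the testis, at most 2.

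Markers of some brain cell types differed between the groups in the same libraries. Summed mRNA of 10 myelin genes was 7277 to 7937 CPM in WT and 4709 to 6483 CPM in KO. Of these genes 10 of 10 had an mRNA log2 fold change below 0 (51.4% of all genes). Summed footprints on them were 2558 to 3048 CPM in WT and 1809 to 2281 CPM in KO. mRNA of 8 cortical excitatory neuron genes was 4035 to 5355 CPM in WT and 4690 to 6044 CPM in KO. Their translational efficiency was below 0 for 8 of 8 (median −0.62), where 4853 of all 9673 genes were below 0. Hypothalamic peptide mRNA ranged from 1.54 to 111.7 CPM in WT and from 0.512 to 8.45 CPM in KO, while footprints on the same 5 genes ranged from 4.65 to 64.0 and from 55.9 to 112.4. Markers of neurons in general, 5 of 5 present, had summed mRNA of 4513 to 4940 CPM in WT and 5328 to 5842 CPM in KO, without overlap, and their translational efficiency was below 0 for 5 of 5. Summed mRNA of 5 ependymal genes was 18.2 to 29.9 CPM in WT and 8.78 to 17.1 CPM in KO, and that of 5 cerebellar genes was 224 to 342 CPM in WT and 194 to 205 CPM in KO, both again without overlap. Of these 6 lists only the cerebellar Gabra6 was at 0 in all footprint libraries, and none was at 0 in all mRNA libraries. Summed mRNA of the cortical excitatory and hypothalamic lists overlapped between the groups. Summed footprints overlapped for the cortical excitatory, general neuron, hypothalamic, ependymal and cerebellar lists. For neurons in general they were 2530 to 4183 CPM in WT and 2684 to 2908 CPM in KO. Ependymal footprints were 10.8 to 13.9 CPM in WT and 5.77 to 22.6 CPM in KO, and cerebellar ones 131 to 258 and 129 to 179 CPM. Markers of astrocytes, microglia, endothelium, choroid plexus and red blood cells were also read. Their summed mRNA and footprints overlapped between the groups. The part of the marker shifts in the results on large subunit genes was not tested.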

How the data were processed

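Raw counts per gene for 8 footprint and 8 mRNA libraries were deposited in 1 table (whole numbers with a different total per library), and RPKM made by the authors in 2 others. The gene length in bases and the gene class are also deposited there. The submitters' processing notes name TopHat2 and mm10, with no role. The counting program, annotation, handling of multiply mapped reads and filters are not given in the sources used here. From counts, length and RPKM, a common scaling followed for each column.

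The counts went into edgeR 4.0.16 (R 4.3.3, TMM, quasi-likelihood test, no block, all gene classes) with Benjamini-Hochberg adjustment and a threshold of 0.05. Footprint genes were kept by filterByExpr (minimum count 10), mRNA genes where RPKM averaged 1 or more, and efficiency genes where it did so in both kinds. CPM use TMM library sizes. Alternatives were DESeq2 1.42.0, limma 3.58.1 on log2(RPKM + 0.1) and log2(RPKM + 1), other scalings and filters, protein-coding genes only, a length correction, a replicate block, and left-out libraries. Within each kind, a WT and a KO library sharing a number deviated together at correlations of −0.247 to 0.075. No pairing by number was seen, but so few libraries cannot settle whether there is one. The correlations do not address footprint and mRNA libraries of the same name, which the main efficiency test did not pair. For efficiency the replicate block paired these libraries, while for footprints and for mRNA it was the number shared by WT and KO.

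The 45 genes and all lists were chosen with earlier results of these data known, so no test over a list is given. Named genes were the 3 of lowest p per direction and comparison, extremes of WT level and ratio, the stalk and 5S-binding proteins, and 2 to 4 per role. Copies were table rows named as pseudogenes of a gene and not classed as protein-coding. Another 7 rows so named were classed as protein-coding and left out, 1 of them for Rpl13a. Start sequences are from RefSeq (GRCm38.p6). Reading frame and read length were not analysed here.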

Additional observations from a re-analysis of the deposited data

Results flagged for a closer look

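Footprint CPM of Rpl23a in WT stood apart in library 1, with 3.40 where the other 3 libraries were at 0. In KO, library 1 had 1.22 and the other 3 were at 0. In each case the gap to the nearest library exceeded Dixon's 95% critical value for 4 samples. With 3 libraries at 0 the gap is the whole range, so any count above 0 would be marked. The marks therefore show only sparse footprints. The values rest on 6 counts and 1 count. They were 2 of 48 groups examined, and the nominal chance rate of about 5% of groups need not hold for counts this sparse.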

How the results depend on the processing

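By DESeq2, 4 footprint, 75 mRNA and 150 efficiency genes passed, where edgeR called 0 in each (468, 1377 and 1052 genes at an unadjusted p under 0.05). With protein-coding genes only, 3 footprint genes passed, and with no filter 86 footprint and 24 mRNA genes. Leaving out 1 library gave 0 to 2 mRNA genes (2 without KO library 4) and 0 to 4 efficiency genes (4 without KO library 2, 1 without WT library 3 and 1 without WT library 4), and 0 footprint genes throughout. With the replicate block, which for efficiency paired footprint and mRNA libraries of the same name, 5 efficiency genes passed, none of them a large subunit gene. With it the large subunit medians were 0.11 for footprints, −0.10 for mRNA and 0.18 for efficiency. Leaving out 1 library moved these medians over 0.09 to 0.24, −0.13 to −0.05 and 0.15 to 0.38. The KO over WT share was 1.01 to 1.07 for footprints and 0.899 to 0.954 for mRNA, and 0.934 for footprints over all gene-assigned counts. The WT gap between large subunit and all genes, −1.94, was −2.06 to −1.85. The mRNA change of Rpl23a was −0.029 when WT library 1 was left out, 0.23 when WT library 4 was, and −0.13 without WT libraries 1 and 2 together, where that of Rpl13a was −0.048. The cause of these changes was not tested. Large subunit footprints are few, 567 to 3245 per library, which limits every footprint and efficiency value. Footprint levels per codon were not run, since protein lengths were not used here.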
